A study of Mus musculus with 2 samples.

Results

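Activity-induced genes, which cells switch on within minutes of a stimulus, are described here in mouse dorsal root ganglia, where the cell bodies of the body's sensory neurons lie: the zinc finger factors Egr1, Egr2 and Egr3, the orphan nuclear receptors Nr4a1 and Nr4a2, the neuronal factor Npas4, the immediate early genes Ier2 and Ier3, the phosphatase gene Dusp1 and the mRNA decay factor gene Zfp36. They were chosen with earlier results of these data known and taken by symbol, and all 10 were found among the 19059 genes of the count tables. On build GRCm39 the protein-coding genes the results turn on are Egr1 (ENSMUSG00000038418, chromosome 18, 34992876 to 34998049, plus strand), Egr3 (ENSMUSG00000033730, chromosome 14, 70314350 to 70320063, plus strand) and Nr4a1 (ENSMUSG00000023034, chromosome 15, 101151980 to 101172681, plus strand). The Penk fl/fl library came from Foxp3 CreER; Penk fl/fl mice and the Penk fl/WT library from Foxp3 CreER; Penk fl/WT littermates, which carry 1 wild-type Penk allele. Both groups received tamoxifen, which activates CreER, and imiquimod for 3 days, which provokes skin inflammation resembling psoriasis. The recombinase is driven by Foxp3, the factor of regulatory T cells, so that neurons and glia of the ganglion were not the cells in which Penk was meant to be deleted. Cervical ganglia fixed in 4% paraformaldehyde were pooled into 1 library per group, and how many mice were pooled is not stated in the labels. With 1 library on each side, no test between the genotypes was possible. All intervals are exact 95% intervals that cover counting error only, not the spread between mice, between preparations or between cells.

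Immediate early genes are transcribed without new protein synthesis when calcium entry or growth factor signalling reaches factors already bound at their promoters, above all CREB at the cyclic AMP response element (CRE) and serum response factor at the CArG box. Their mRNAs are short-lived, so that their level follows recent stimulation. In sensory neurons they are used as markers of recent firing, but glia, fibroblasts and endothelial cells induce the same genes on stretch, injury, cytokines or tissue handling.

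Promoter windows of 250 bases ending at an annotated start were available from RefSeq (build GRCm38.p6) for 7 of the 10 genes, all but Egr1, Egr3 and Ier2. Both strands were searched for the full CRE TGACGTCA, for the CRE half-site TGACG or CGTCA, which the full site contains on either strand, and for the CArG box. The windows of 4 genes are printed because they show how these letters lie upstream of different genes. These are a nuclear receptor gene that was lower in Penk fl/fl neurons, the neuronal factor, the phosphatase gene and an Egr gene. They are Nr4a1 (chr15:101266596-101266845, plus strand), Npas4 (chr19:4989972-4990221, minus strand), Dusp1 (chr17:26508473-26508722, minus strand) and Egr2 (chr10:67537619-67537868, plus strand), written from 5′ to 3′ along the gene with matches in capitals.
Nr4a1: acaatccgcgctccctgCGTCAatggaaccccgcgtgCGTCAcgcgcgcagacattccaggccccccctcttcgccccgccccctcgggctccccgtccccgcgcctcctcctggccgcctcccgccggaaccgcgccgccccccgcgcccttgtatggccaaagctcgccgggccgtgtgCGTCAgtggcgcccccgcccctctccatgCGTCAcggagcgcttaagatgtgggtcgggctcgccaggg
Npas4: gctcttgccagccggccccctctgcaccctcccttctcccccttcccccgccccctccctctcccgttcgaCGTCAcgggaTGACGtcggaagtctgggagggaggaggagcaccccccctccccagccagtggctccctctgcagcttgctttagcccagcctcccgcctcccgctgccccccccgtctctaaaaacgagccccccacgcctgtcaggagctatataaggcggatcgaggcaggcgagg
Dusp1: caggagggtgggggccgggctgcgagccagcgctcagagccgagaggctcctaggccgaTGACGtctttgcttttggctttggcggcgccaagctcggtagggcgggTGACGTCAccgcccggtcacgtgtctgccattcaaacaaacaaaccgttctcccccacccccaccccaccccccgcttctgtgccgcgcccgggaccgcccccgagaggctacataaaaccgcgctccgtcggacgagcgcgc
Egr2: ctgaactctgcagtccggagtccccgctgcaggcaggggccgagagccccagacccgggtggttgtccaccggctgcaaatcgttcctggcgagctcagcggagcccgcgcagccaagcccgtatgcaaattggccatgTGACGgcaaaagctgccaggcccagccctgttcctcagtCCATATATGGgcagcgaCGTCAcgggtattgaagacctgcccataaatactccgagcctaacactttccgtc
The Nr4a1 window holds 4 half-sites, and the Npas4 window 2. In the Dusp1 window 3 half-site matches were found, which include those of 1 full CRE. The printed Egr2 window, 1 of 5 for that gene, holds 2 half-sites and 1 CArG box. Of those 5 windows, 3 held a half-site and 4 a CArG box. Over all windows, at least 1 half-site was found for 5 of the 7 genes (Egr2, Nr4a1, Nr4a2, Npas4 and Dusp1), against 19.8% of 27025 genes. The full CRE was found for 1 of the 7 (1.77% of all genes) and the CArG box for 2 of the 7, Egr2 and Zfp36 (1.62%). A match is a description of letters, not of a bound site.

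Unique molecular identifiers (UMIs) numbered 156441497 over 12067 barcodes in the Penk fl/fl library and 259136217 over 15710 barcodes in the Penk fl/WT library, with medians of 2243 and 2481 per barcode. Penk, the targeted gene, had 4 UMIs in the Penk fl/fl library and 582 in the Penk fl/WT library, over all cell types. The difference was also seen in neurons. With neurons thinned to equal depth, as described below, Penk had 0 UMIs in 3802 Penk fl/fl and 83 UMIs in 5235 Penk fl/WT neurons. It was found in 0% and 0.630% of them. Where the Penk probes lie relative to the deleted part is not stated in the labels, and the cause of this difference was not tested. Foxp3 had 5 and 10 UMIs, too few to describe the cells that express the recombinase. The same 4723 droplet barcodes occurred in both libraries, 39.1% of the Penk fl/fl and 30.1% of the Penk fl/WT barcodes. Cells were grouped into classes by fixed markers, with the genes described here left out of the clustering, and each class name means resemblance to those markers only. Neurons made up 5111 (42.4%) of the kept Penk fl/fl cells and 6666 (42.5%) of the Penk fl/WT cells, with medians of 7780 and 10956 UMIs. All other kept cells are called non-neuronal, which takes in the clusters that could not be named. Among these, a cluster led by globin genes also had Calca, a marker used for peptidergic A nociceptors, among its leading genes. General neuron markers were found in non-neuronal cells at a median of 53.7% of their level in neurons in the Penk fl/fl library (lowest 47.6%, highest 61.8%) and 56.3% in the Penk fl/WT library (52.0% to 62.2%), so much RNA from neurons was found outside them.

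Levels below are CPM, the UMIs of a gene per 1000000 UMIs of its class, and a ratio is the Penk fl/fl level over the Penk fl/WT level. A gene is called lower at a ratio of 0.8 or less and higher at the inverse of 0.8 or more, where it had at least 200 UMIs over both libraries. Probes differ between genes, so levels are compared between libraries and classes, never between genes. A lower summed level cannot tell fewer cells with the transcript from less transcript in each.

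For most of these genes the named class with the highest level was not a neuron subtype, in either library. Egr1 was highest in fibroblast-like cells, at 254 CPM in the Penk fl/fl and 358 CPM in the Penk fl/WT library, and no other class overlapped their interval in either library. Egr2, which drives the myelin programme of Schwann cells, was highest in myelinating Schwann-like cells (56.4 and 51.9 CPM). Egr3 was highest in satellite glia-like cells, the glia that wrap each neuron cell body (80.4 and 109 CPM). These 3 peaks stood clear of the next named class's interval in both libraries.

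Both nuclear receptor genes also peaked in glia. Nr4a1 reached 343 CPM in Penk fl/fl and 342 CPM in Penk fl/WT satellite glia-like cells. Nr4a2 reached 60.0 and 52.0 CPM in myelinating Schwann-like cells, and each peak was clear of the next named class. A cluster that could not be named, of 256 and 303 cells, had Nr4a1 at 440 and 412 CPM, above the satellite glia-like cells in both libraries. Among neuron subtypes, Nr4a1 was highest in proprioceptor-like neurons, which sense muscle stretch, at 38.3 and 46.5 CPM. Nr4a2 was highest in A-delta LTMR-like neurons, which sense light touch, at 19.1 and 17.9 CPM.

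Of the remaining genes, some had their highest level in neurons or no single peak. Dusp1, which inactivates MAP kinases, was highest in Trpm8 cold neuron-like cells at 101 and 129 CPM, with an interval that overlapped the mural-like cells in both libraries. Ier3 was at 64.4 CPM in Penk fl/fl and 77.1 CPM in Penk fl/WT Mrgprd nonpeptidergic neuron-like cells, its peak in the Penk fl/fl library, and at 47.4 and 80.4 CPM in endothelial-like cells, its peak in the Penk fl/WT library, and both peaks overlapped the next class. Ier2 was highest in endothelial-like cells of the Penk fl/fl library (22.6 CPM) and macrophage-like cells of the Penk fl/WT library (37.0 CPM), again with overlap. Zfp36, whose protein shortens the life of cytokine mRNAs, was highest in arachnoid meningeal-like cells (181 and 149 CPM), clear of the macrophage-like cells (123 and 103 CPM). The name of that class depends on the clustering. Of its 568 Penk fl/fl and 632 Penk fl/WT cells, 523 and 575 were named perineurial sheath-like and 41 and 49 arachnoid meningeal-like when the genes described here were kept among the variable genes. Zfp36 was then at 188 and 174 CPM in the perineurial sheath-like and 66.7 and 64.6 CPM in the arachnoid meningeal-like cells, the last on 5 and 29 UMIs.

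Npas4, which is known as induced by calcium entry in neurons, had 12 UMIs in Penk fl/fl and 60 in Penk fl/WT neurons, of which 13 lay in 1 Penk fl/WT cell. Non-neuronal cells held 0 and 5 Npas4 UMIs. The class with the highest Npas4 level was the Trpm8 cold neuron-like one, with 3 UMIs (1.55 CPM) and 10 UMIs (3.42 CPM). Peptidergic A nociceptor-like neurons, pain neurons with thin myelinated fibres, held 1 and 19 Npas4 UMIs.

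**Figure D1:**
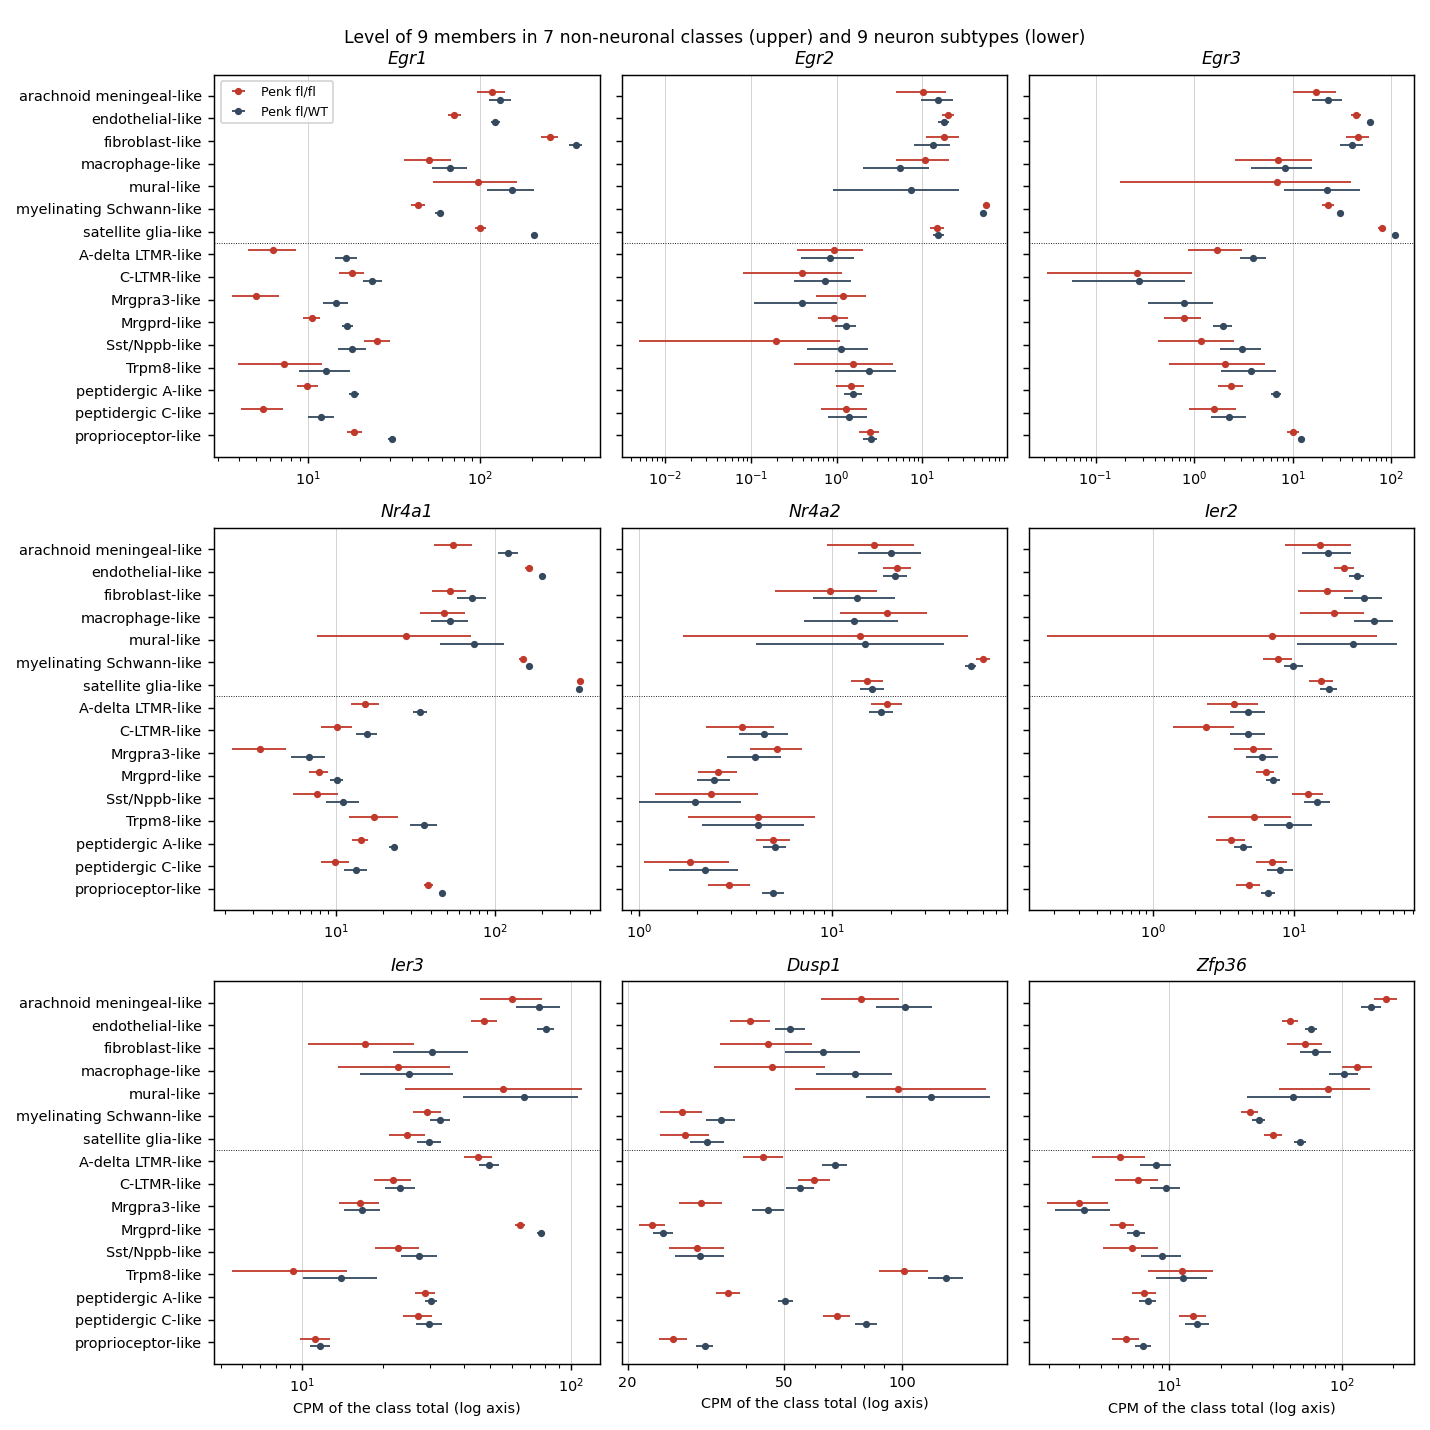
Level of 9 genes in CPM of the class total (log axes) in 7 non-neuronal classes above the dotted line and 9 neuron subtypes below it, in the Penk fl/fl (red) and Penk fl/WT (dark) libraries, with exact Poisson 95% intervals; a class at 0 UMIs has no point, and Npas4 is left out for its few UMIs. The order of the classes is much the same in both libraries, with Egr1 at 254 and 358 CPM in fibroblast-like cells and Nr4a1 at 343 and 342 CPM in satellite glia-like cells.

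The order of the 16 classes was similar in both libraries. Spearman's rho between libraries was 0.979 for Egr3 and Nr4a1, 0.959 for Dusp1, 0.953 for Egr1, 0.947 for Ier2, 0.915 for Ier3 and 0.909 for Nr4a2, with Zfp36 between Egr1 and Ier2. It was lower for the sparse Egr2 (0.776) and Npas4 (0.556). These values, and the following ones, describe 16 classes that share 2 libraries and free RNA.

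Across those classes, levels of several of the 10 genes ran together on the log2(CPM + 1) scale. Pearson's r was 0.948 between Egr3 and Nr4a1, 0.879 between Egr2 and Nr4a1 and 0.852 between Egr1 and Zfp36. Dusp1 followed another order, with an r of -0.09 with Egr2. Of the 12732 genes with at least 10 CPM in some class, those most like Egr1 were Acsf2 (0.979), Ccdc163 and Rcn3. Those most like Egr2 were Bcas1 (0.984), Fxyd3 and Sh3tc2, and those most like Egr3 were Itgb3 (0.988), Fbln2 and Aspa. Nr4a1 was matched most closely by Slc43a3 (0.981) and Sostdc1, and Nr4a2 by Sgk1 (0.896), Arhgap19 and Shc4. For Ier2 the closest were Atad2b (0.948), Elf2 and Irak4, for Ier3 Pdxdc1 (0.770), Sh3bp4 and Ktn1, and for Dusp1 Fem1a (0.872), Gtf2a2 and A4galt. Zfp36 was closest to Tob2 (0.969), Tmed2 and Cdkal1, and the sparse Npas4 to Mtnr1a (0.948), Slc10a4 and Zrsr1. These r values are on the mean of both libraries. In single libraries some were weaker, with Pdxdc1 and Ier3 at 0.672 in the Penk fl/fl and 0.351 in the Penk fl/WT library, and Atad2b and Ier2 at 0.733 and 0.708.

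In neurons as a whole, Egr1, Egr3 and Nr4a1 were lower in the Penk fl/fl than in the Penk fl/WT library. Egr1 had 1482 UMIs (11.5 CPM) in Penk fl/fl and 4173 UMIs (19.4 CPM) in Penk fl/WT neurons, a ratio of 0.593 (0.559 to 0.630). Egr3 had 365 UMIs (2.84 CPM) and 1139 UMIs (5.30 CPM), a ratio of 0.535 (0.474 to 0.603). Nr4a1 had 1898 UMIs (14.7 CPM) and 4890 UMIs (22.7 CPM), a ratio of 0.648 (0.615 to 0.684). These UMIs lay in few cells. The 1% of neurons with the most Egr3 UMIs held 61.1% of them in the Penk fl/fl and 44.7% in the Penk fl/WT library. Such shares were 29.4% and 28.9% for Egr1, and 36.6% and 26.6% for Nr4a1. For comparison, the deepest 1% of neurons held 9.71% and 8.97% of the UMIs of all genes. Shares of this kind rise as UMIs become fewer, to 100% in both libraries for the sparse Npas4. They therefore do not show that UMIs were more concentrated in the Penk fl/fl library, which had fewer. The other Egr and Nr4a genes did not pass the step: Egr2 stood at 1.37 and 1.57 CPM (0.872, 0.723 to 1.05) and Nr4a2 at 4.31 and 4.68 CPM (0.921, 0.829 to 1.02).

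None of the other genes with at least 200 UMIs in neurons passed the step. Dusp1 stood at 34.1 and 41.4 CPM (0.824, 0.795 to 0.854), and Zfp36 at 6.37 and 7.39 CPM (0.862). Ier2 stood at 5.08 and 5.93 CPM (0.856), and Ier3, which is linked to cell survival, at 31.8 and 34.3 CPM (0.929). Npas4, with a ratio of 0.334 (0.164 to 0.627), had too few UMIs to be judged. All 9 genes with at least 200 UMIs had ratios below 1, as did 52.3% of all genes tested. Thus 3 of these 9 genes were lower and 0 higher, where 3.67% and 1.99% of the 12954 genes tested in neurons were lower and higher. Ordered from the lowest ratio among those genes, Egr3 was number 14, Egr1 number 31, Nr4a1 number 57 and Dusp1 number 649.

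Depth differed between the libraries, so neurons were also thinned to 3000 UMIs each, which kept 3802 Penk fl/fl and 5235 Penk fl/WT neurons. Egr1 was then found in 3.71% of Penk fl/fl and 5.73% of Penk fl/WT neurons (13.4% and 22.1% before thinning), and its ratio was 0.616 (0.504 to 0.750). Nr4a1 was found in 3.84% and 6.70% of neurons (14.2% and 23.5% before thinning), with a ratio of 0.591 (0.489 to 0.712). For Egr3 the shares were 0.921% and 1.36% (3.60% and 7.08% before thinning), with a ratio of 0.670 and an interval of 0.437 to 1.01 that reaches equal levels. The remaining genes gave shares whose intervals overlapped between the libraries, such as 10.5% and 11.8% for Dusp1 and 8.86% and 9.59% for Ier3. Egr2 stood at 0.815% and 0.611% with a ratio of 1.29 (0.766 to 2.18), on 31 and 33 UMIs.

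**Figure D2:**
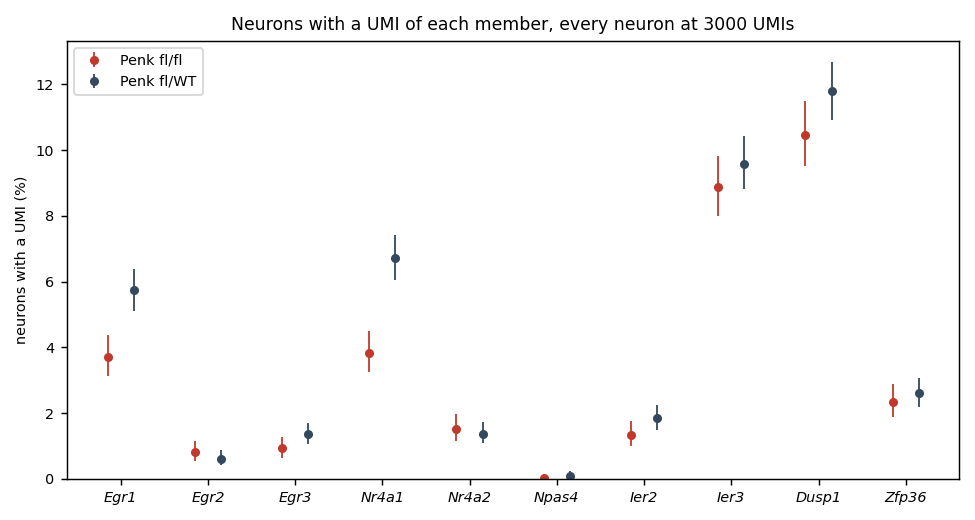
Percentage of neurons with at least 1 UMI of each gene (vertical axis) after thinning every neuron to 3000 UMIs, in the Penk fl/fl (red) and Penk fl/WT (dark) libraries, with Clopper-Pearson 95% intervals. For Egr1 (3.71% and 5.73%) and Nr4a1 (3.84% and 6.70%) the bars of the libraries lie apart, and for the other 8 genes they overlap.

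Transcripts of non-neuronal cells were also found in neurons, which touches the genes that peak in glia. The level of Nr4a1 in neurons was 4.30% of its level in satellite glia-like cells in the Penk fl/fl library and 6.64% in the Penk fl/WT library, and that of Egr3 was 3.53% and 4.87%. The 8 satellite glia markers stood in neurons at a median of 4.02% of their satellite glia-like level in the Penk fl/fl library (lowest 3.49%, highest 44.6%) and 5.38% in the Penk fl/WT library (5.02% to 46.6%). Their summed level in neurons was 1069 and 1078 CPM. That sum takes in markers at up to 44.6% and 46.6%, so it does not measure glial RNA alone. The median share of the markers was lower in the Penk fl/fl library, as were the shares of Nr4a1 and Egr3. Nr4a1 and Egr3 in neurons thus lay close to the share at which markers of satellite glia were found there, and the part of glial RNA in their neuron values was not tested. Egr1 lay above it, at 11.5% and 9.48% of its satellite glia-like level. Egr1 peaked in fibroblast-like cells, however, at 254 and 358 CPM against 11.5 and 19.4 CPM in neurons. The part of RNA from such cells in its neuron values was not tested either. Egr2 in neurons was 2.43% and 3.02% of its myelinating Schwann-like level, under the median of 3.04% and 3.66% for the markers of those cells. In the neurons lowest in markers of other cells (2585 Penk fl/fl and 3303 Penk fl/WT) the ratios were 0.634 for Egr1, 0.603 for Egr3 and 0.575 for Nr4a1. The markers used for this set include Gfra3, which was also among the leading genes of peptidergic C nociceptor-like neurons. The set can therefore differ from the other neurons in subtype, and it is no clean measure of low glial RNA. In droplets not shared between libraries the ratios of Egr1, Egr3 and Nr4a1 were 0.673, 0.702 and 0.693.

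**Figure D3:**
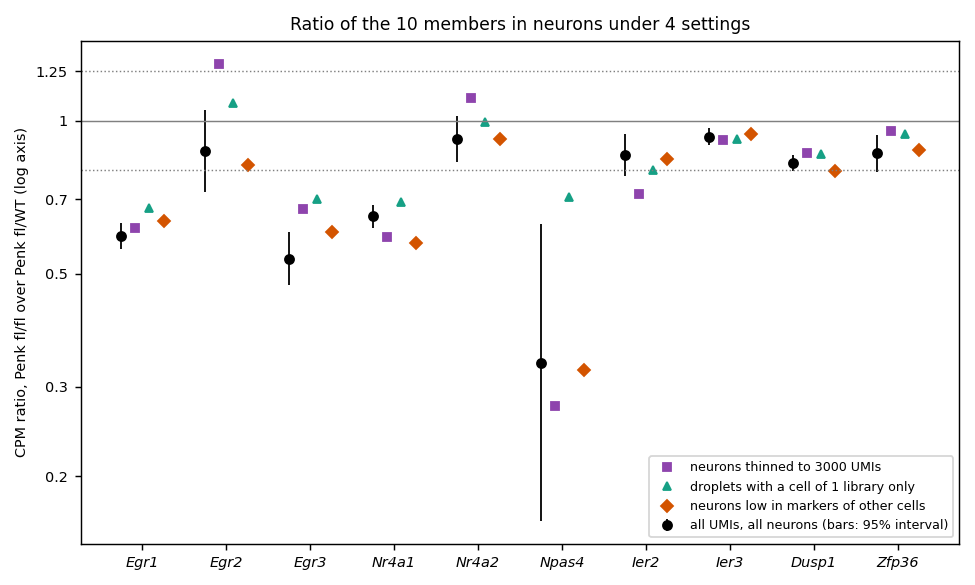
CPM ratio of Penk fl/fl over Penk fl/WT neurons (log axis) for each of the 10 genes, with all UMIs (black, with exact 95% intervals), neurons thinned to 3000 UMIs, droplets not shared between libraries, and neurons low in markers of other cells; dotted lines mark the steps for lower and higher. Egr1, Egr3 and Nr4a1 lie under 0.8 in all 4 settings, whereas Egr2 lies between 0.818 and 1.29.

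The 10 genes were also compared within each neuron subtype that had at least 100 cells in each library. Of 41 pairs of a gene and a subtype with enough UMIs, 18 were lower in the Penk fl/fl library, 1 was higher and 38 had a ratio below 1. Of all 80911 such pairs over the whole gene table, 4.05% were lower, 1.95% higher and 52.5% below 1. Egr1 was lower in 5 of its 6 subtypes and Nr4a1 in 5 of its 6, while Ier3 passed the step in 0 of its 8 subtypes.

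A-delta LTMR-like neurons had the lowest Egr1 ratio of the 6 subtypes with enough Egr1 UMIs. Egr1 was at 6.26 CPM in the Penk fl/fl and 16.6 CPM in the Penk fl/WT library (0.376, 0.260 to 0.532), on 40 and 179 UMIs. In the same cells Nr4a1 was at 15.3 and 34.0 CPM (0.451, 0.357 to 0.565) and Dusp1 at 44.3 and 67.4 CPM (0.657, 0.571 to 0.755). Nr4a2, which was highest among neurons here, did not follow them, at 19.1 and 17.9 CPM (1.07, 0.845 to 1.35).

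Proprioceptor-like neurons had 4 lower genes of the 8 that could be judged, where 2.04% of all genes tested there were lower. Egr1 was at 18.6 and 30.8 CPM (0.603, 0.540 to 0.674). Nr4a2 was at 2.92 and 4.94 CPM (0.592), Ier2 at a ratio of 0.733 and Zfp36 at 0.792. Egr3 and Nr4a1, which were highest among neurons in this subtype, stood at ratios of 0.826 and 0.823. In droplets not shared between libraries, Zfp36 was at 1.06 in this subtype. Without the clusters that hold Apoe, which satellite glia are known to express, among their leading genes, Nr4a2 was at 0.805 and Zfp36 at 0.843, so neither passed the step.

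Peptidergic A nociceptor-like neurons also had 4 lower genes of 8 (6.95% of all genes tested there were lower). Egr1 was at 9.94 and 18.5 CPM (0.537, 0.458 to 0.627), Nr4a1 at a ratio of 0.618 (0.540 to 0.704) and Dusp1 at 36.1 and 50.5 CPM (0.715, 0.656 to 0.777). Egr3 was at 2.35 and 6.87 CPM (0.342, 0.247 to 0.465), on 48 and 293 UMIs. This class was made of 3 clusters in unequal proportions, of which the one with Apoe among its leading genes held 108 of 547 Penk fl/fl cells and 387 of 941 Penk fl/WT cells. Without that cluster Egr1 and Dusp1 stayed lower (0.615 and 0.723). Nr4a1 was then at 0.630 (0.443 to 0.884), on 49 and 124 UMIs against 293 and 990 in the whole class. Egr3 was at 0.851 (0.312 to 2.14), on only 8 and 15 UMIs. Both had under 200 UMIs there and could not be judged, as most of their UMIs in this class lay in the cluster left out.

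In the unmyelinated pain, itch and touch neurons the picture was mixed. Mrgprd nonpeptidergic neuron-like cells had Egr1 at 10.5 and 16.9 CPM (0.623, 0.544 to 0.713) and Nr4a1 at a ratio of 0.770. One of their clusters took unequal shares of the class, with 277 of 1195 Penk fl/fl and 203 of 1473 Penk fl/WT cells, and without it Egr1 was at 0.626 (0.535 to 0.730) and Nr4a1 at 0.721 (0.544 to 0.949). C-LTMR-like neurons, which sense gentle stroking, had Egr1 at 17.9 and 23.7 CPM (0.759) and Nr4a1 at 0.651, but Dusp1 at 59.7 and 55.1 CPM (1.08, 0.958 to 1.23). Peptidergic C nociceptor-like neurons had Nr4a1 at 0.745, and the itch neurons named for Mrgpra3 had Dusp1 at 30.7 and 45.6 CPM (0.675). Trpm8 cold neuron-like cells, where Dusp1 was highest, had it at a ratio of 0.782 (0.655 to 0.932). Of the 18 lower subtype pairs, 13 stayed lower with neurons at 3000 UMIs and 16 in the neurons low in markers of other cells. Those that did not at 3000 UMIs were Nr4a2 in proprioceptor-like neurons (1.14), Egr1 and Nr4a1 in C-LTMR-like neurons (0.899 and 0.818), and Dusp1 in Trpm8 cold neuron-like and peptidergic A nociceptor-like neurons (0.8499 and 0.8495). In the neurons low in markers of other cells they were Egr1 in C-LTMR-like (1.03) and Nr4a1 in Mrgprd nonpeptidergic neuron-like cells (0.889). Of all 41 subtype pairs of these genes, 19 were lower in each of these 2 settings, so other pairs became lower. Over the whole gene table, 16.4% of pairs were lower at 3000 UMIs and 7.43% in the neurons low in markers of other cells. With all UMIs and all neurons it was 4.05%.

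The 1 pair that was higher in the Penk fl/fl library was Egr1 in Sst/Nppb pruriceptor-like neurons, the itch neurons that make natriuretic polypeptide b. They had 129 UMIs (25.2 CPM) in the Penk fl/fl and 112 UMIs (18.0 CPM) in the Penk fl/WT library, a ratio of 1.40 (1.08 to 1.81). Those UMIs lay in 50 and 49 cells, with up to 13 in 1 cell in each library. In droplets not shared between libraries the ratio was 1.28. A count of 1 higher pair of 41 is near the 1.95% of all subtype pairs that were higher. Median depth was alike, at 8676 and 8634 UMIs per cell. Ier3 and Dusp1 in these cells stood at 0.832 and 0.982.

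**Figure D4:**
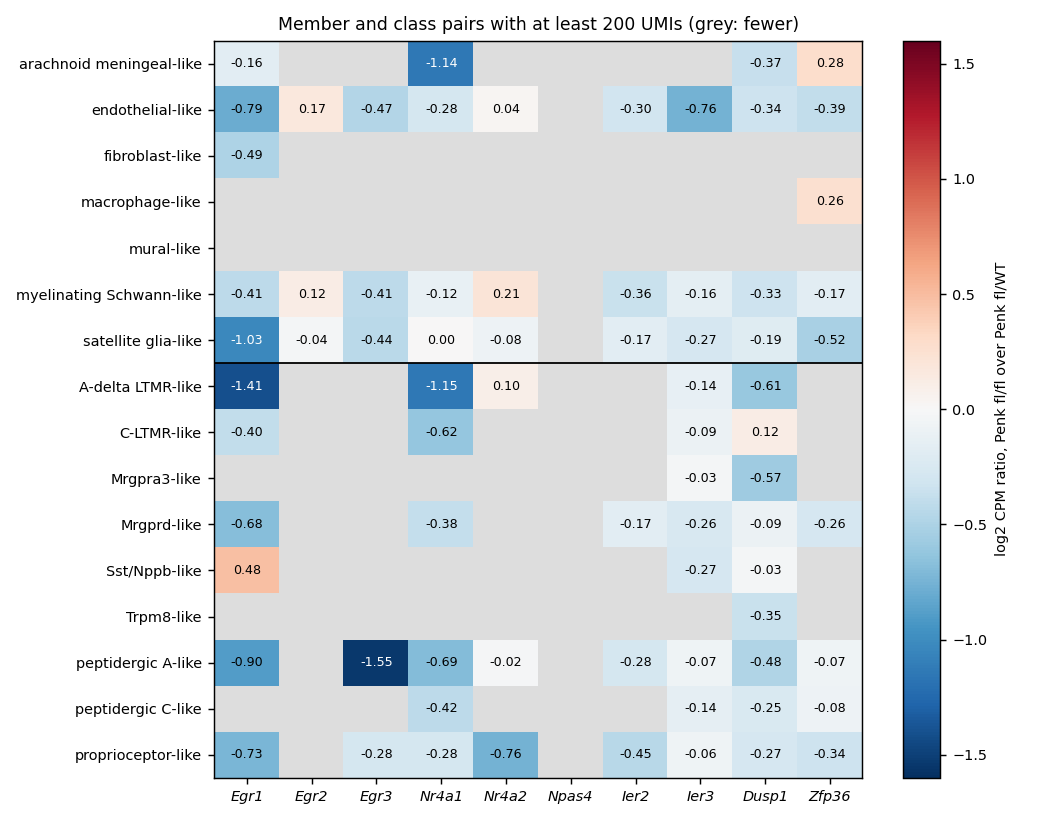
Log2 ratio of CPM, Penk fl/fl over Penk fl/WT, for each gene (columns) in 7 non-neuronal classes (above the line) and 9 neuron subtypes (below it), printed in each cell with at least 200 UMIs over both libraries and grey otherwise. Blue is lower in the Penk fl/fl library and covers most of the Egr1 column, with 0.48 in Sst/Nppb pruriceptor-like neurons as its one value above 0.

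In non-neuronal cells together, unnamed clusters included, Egr1, Egr3 and Ier3 were lower in the Penk fl/fl library. Egr1 was at 76.3 CPM in Penk fl/fl and 126 CPM in Penk fl/WT cells (0.607, 0.577 to 0.639), close to its ratio in neurons. Egr3 was at 42.7 and 58.6 CPM (0.729) and Ier3 at 33.9 and 43.8 CPM (0.772). That made 3 of 9 genes lower and 0 higher, where 1.79% of 12334 genes were lower and 4.32% higher. Nr4a1, lower in neurons, was at 192 and 215 CPM (0.892, 0.862 to 0.922) here. Egr2 (30.2 and 29.2 CPM) and Nr4a2 (32.8 and 30.7 CPM) had intervals of the ratio that include 1. Neuronal RNA outside neurons touches Ier3 and Dusp1, whose levels in neurons and other cells were alike, and its part was not tested. Ier3 in non-neuronal cells was at 106% of its neuron level in the Penk fl/fl and 128% in the Penk fl/WT library, and Dusp1 at 102% in both, where general neuron markers were at 53.7% and 56.3%. In fibroblast-like cells Ier3 was at 53.7% and 88.8% of its neuron level, and in the Penk fl/fl library this lay within the range of the neuron markers there (36.0% to 57.1%). By class, 15 of 33 pairs of a gene and a class were lower and 0 higher, against 3.73% and 4.07% of all 40016 pairs.

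In satellite glia-like cells 3 of 9 genes were lower, where 3.8% of all genes tested there were lower. Egr1 had 697 UMIs (99.9 CPM) in the Penk fl/fl and 2572 UMIs (205 CPM) in the Penk fl/WT library, a ratio of 0.488 (0.448 to 0.531). With each cell thinned to 500 UMIs the ratio was 0.491, and 3.54% and 7.47% of these cells had an Egr1 UMI. Nr4a1, at its peak in the same cells, was at 343 and 342 CPM, a ratio of 1.00 (0.952 to 1.05). Egr3 was at 80.4 and 109 CPM (0.739, 0.668 to 0.815) and Zfp36 at 40.0 and 57.4 CPM (0.697, 0.605 to 0.801). In droplets not shared between libraries, Egr3 was at 0.855 and no longer passed the step, while Egr1 was at 0.468 and Zfp36 at 0.727.

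Endothelial-like cells had 5 lower genes of 9, where 2.25% of all genes tested there were lower. Ier3 was at 47.4 and 80.4 CPM (0.590, 0.517 to 0.672), and Egr1 at 70.7 and 122 CPM (0.579, 0.520 to 0.644). Egr3 was at 44.4 and 61.5 CPM (0.722), Zfp36 at a ratio of 0.761 and Dusp1 at 0.792. Egr3 did not hold in droplets not shared between libraries (0.938). With cells thinned to 500 UMIs it had 10 and 3 UMIs, a ratio of 4.02 (1.03 to 22.7). Zfp36 was also past the step for higher in that setting, at 1.36.

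Myelinating Schwann-like cells had 4 lower genes of 9, where 2.1% of all genes tested there were lower. These were Egr1, at 43.6 and 58.1 CPM (0.751, 0.668 to 0.844), Egr3 at 0.750, Dusp1 at 0.795 and Ier2 at 0.778, whose interval includes 1 (0.582 to 1.03). The 2 genes at their peak there did not pass the step. Nr4a2 was at 60.0 and 52.0 CPM (1.15, 1.04 to 1.28) and Egr2 at 56.4 and 51.9 CPM (1.09, 0.972 to 1.21).

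In the connective tissue classes Egr1 was lower in fibroblast-like cells, at 254 and 358 CPM (0.710, 0.613 to 0.820), although in droplets not shared between libraries it was at 0.851. In arachnoid meningeal-like cells Egr1 was at 116 and 130 CPM (0.893, 0.702 to 1.13), while Nr4a1 was at 55.1 and 122 CPM (0.453, 0.328 to 0.617), on 54 and 182 UMIs. In the perineurial sheath-like cells, which hold most of this class when the genes are kept among the variable genes, Egr1 was at 114 and 145 CPM (0.782, 0.605 to 1.01), just past the step, and Nr4a1 at 62.8 and 141 CPM (0.446, 0.324 to 0.607). Zfp36 in the arachnoid meningeal-like cells was at 181 and 149 CPM (1.21, 0.989 to 1.48), and in macrophage-like cells at 123 and 103 CPM (1.20, 0.907 to 1.58). Over neurons and other cells, 31 of the 33 lower pairs had intervals that exclude 1. All 33 still passed the step without the cell that held the most UMIs of the gene in each library. The pairs were picked from these same counts by their ratio and their UMIs, so neither count is a check on them. In droplets not shared between libraries, 5.79% of all neuron subtype pairs and 7.23% of all non-neuronal pairs were lower. There 27 of the 33 pairs stayed lower. Beside those given above, Dusp1 in arachnoid meningeal-like (0.820) and Ier2 in myelinating Schwann-like cells (0.923) were not.

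Few thinned neurons had UMIs of several of these genes at once. Thinning lowers detection, so a gene without a UMI in a neuron is not shown to be absent from it. At 3000 UMIs per neuron, 70.9% of Penk fl/fl and 65.6% of Penk fl/WT neurons had a UMI of none of the 10 genes, and 24.9% and 28.2% had exactly 1 of them. At least 3 were found in 16 Penk fl/fl neurons (0.421%) and 49 Penk fl/WT neurons (0.936%). Within thinned neurons, Nr4a1 was found in 8.51% of 141 Penk fl/fl neurons with an Egr1 UMI and 3.66% of the rest, and in 14.0% of 300 such Penk fl/WT neurons and 6.26% of the rest. Ier3 was found in 10.8% of 398 Penk fl/fl neurons with a Dusp1 UMI and 8.64% of the rest, and in 7.94% of 617 such Penk fl/WT neurons and 9.81% of the rest, so this pair ran in opposite directions in the libraries. These shares were not tested.

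Other genes of the same response were read beside them in neurons. Of 53 further rapid activity-induced genes, 50 had at least 200 UMIs, of which 6 were lower, 0 higher and 40 below a ratio of 1, where 3.67% of all genes tested in neurons were lower, 1.99% higher and 52.3% below 1. Their median log2 ratio was -0.10, against -0.22 for the genes described above and -0.01 for all genes tested. The lower ones were Fosb at 0.598 and 1.00 CPM (0.598), Fos, its family's best known member, at 4.22 and 6.98 CPM (0.605, 0.547 to 0.668), the nuclear receptor gene Nr4a3 at 0.847 and 1.27 CPM (0.665), Klf4 (0.704), the phosphatase gene Dusp4 at 2.78 and 3.90 CPM (0.714) and Trib1 (0.779). Arc, which acts at synapses, was at 1.66 and 1.95 CPM (0.851), and Egr4 had 36 and 77 UMIs. Among the highest were Arl4d (1.09), Gadd45g (1.07), Klf6 (1.07), Nfil3 (1.06) and Klf10 (1.05).

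Slower and upstream genes of the pathway were read against the same 3.67% and 1.99% of all genes, and their few calls are near those shares. Of 15 late activity-induced genes of neurons 0 were lower and 1 higher, with a median log2 ratio of 0.03. Inhba, a subunit gene of activin, was the higher one at 0.932 and 0.688 CPM (1.35), and Homer1 (0.840), Gpr3 (0.846) and Syt4 (1.15) did not pass the step. Of 25 genes for kinases and factors that induce this response, 0 were lower and 0 higher, with Mrtfa (0.913), Elk4 (0.959), Elk3 (1.13) and Camk2a (1.16) at the ends and a median of 0.02. Among 13 partners, co-repressors and paralogs, Zfp36l2, a paralog of Zfp36, was lower at 6.97 and 9.75 CPM (0.715), and the receptor partner Rxrg was higher at 20.4 and 16.3 CPM (log2 ratio 0.33). Nab2, which represses Egr proteins, was at 0.847 and Elavl1 at 1.05. Heat shock genes, read as a sign of handling stress, had 0 of 11 past the step, with Hsp90aa1 (0.945) and Hspb1 (0.959) lowest and Dnajb1 (1.08) and Hspa1b (1.23) highest. In non-neuronal cells 1 of 11 was higher and 0 lower, where 4.32% and 1.79% of all genes were. It was Hspa1b at 26.8 and 19.6 CPM (1.37, 1.24 to 1.51), followed by Hspa1a at 31.2 and 25.7 CPM (1.21, 1.11 to 1.33), in the same cells in which Egr1, Egr3 and Ier3 were lower, and the part of handling in those values was not tested.

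**Figure D5:**
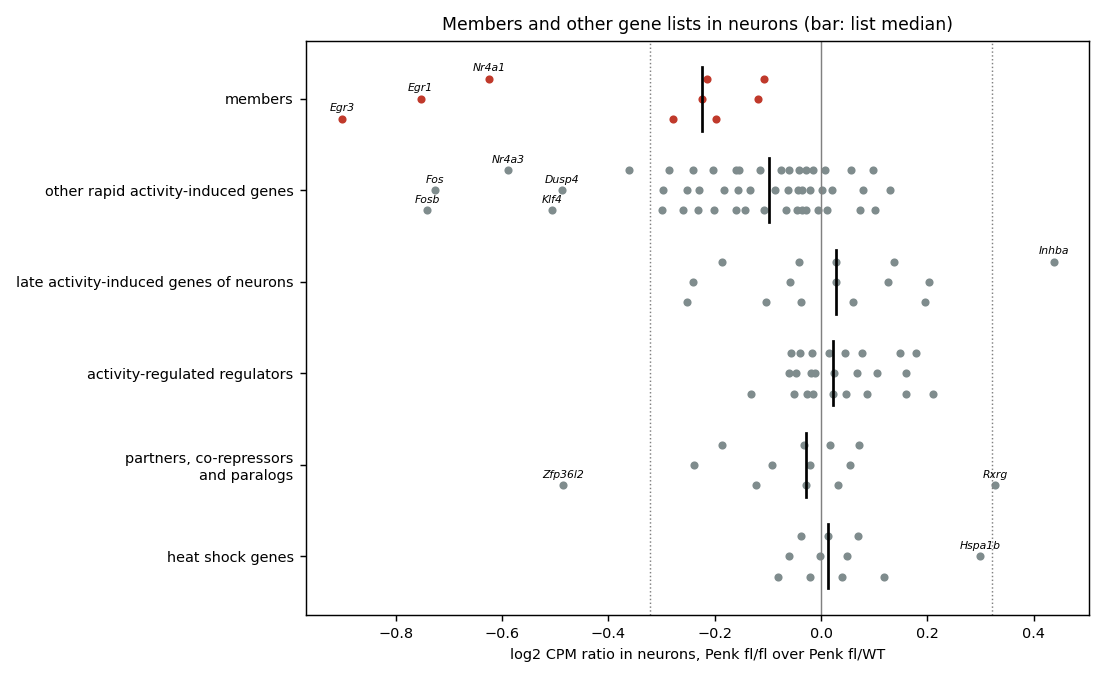
Log2 ratio of CPM in neurons, Penk fl/fl over Penk fl/WT (horizontal axis), for each gene with at least 200 UMIs in 6 lists, with the list median as a bar and dotted lines at the steps for lower and higher. Nr4a1, Egr1 and Egr3, and Fos, Fosb and Nr4a3 of the other rapid genes, lie furthest to the left, while regulators and heat shock genes lie between the dotted lines.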

How the data were processed

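Fixed single cells of pooled dorsal root ganglia were read with probe pairs (Chromium Flex) in 1 library per group. The authors deposited unnormalized UMI counts for each gene and barcode, made with Cell Ranger (7.0 per the labels' protocols, 8.0.1 per the file headers) against mm39. The submitters' processing notes also name Seurat, without saying for what. The labels call the assay single-cell and the series text single-nucleus sequencing. Barcodes under 500 UMIs or 300 genes were left out (leaving 12053 Penk fl/fl and 15690 Penk fl/WT cells), and the others were clustered together in scanpy 1.11.5 (3000 variable genes less the activity-induced genes, 40 components, 15 neighbours, Leiden resolution 1.0) and named by fixed markers of 34 cell types. Neurons were clustered again, and the limit for taking a cluster as neuronal was set after the clusters had been seen. No doublets were removed; leaving out the 20% of cells with the highest Scrublet score was an alternative.

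UMIs were summed per class and library, with exact Poisson, conditional binomial and Clopper-Pearson intervals, which take UMIs as independent. With 1 library per group no p-value was computed. The scripts were tested on simulated data. Named genes of the lists were Fos, Arc, Egr4 and Nr4a3, plus the 5 highest and 5 lowest ratios of the other rapid genes, the 2 highest and 2 lowest of each other list and the 3 closest genes by correlation, of which 1 is not reported here; Trib1 was named after its value was seen, to complete the lower genes. The genes and lists were chosen with earlier results of these data known.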

Additional observations from a re-analysis of the deposited data

Results flagged for a closer look

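Egr1 in Sst/Nppb pruriceptor-like neurons had a ratio of 1.40, Penk fl/fl over Penk fl/WT, where 9 of the 11 classes with enough UMIs were lower. The difference between classes was not tested. Without the cell with the most Egr1 UMIs in each library the class remained past the step. With every neuron at 3000 UMIs it had 19 UMIs in 192 Penk fl/fl and 11 UMIs in 246 Penk fl/WT cells, a ratio of 2.21 (1.00 to 5.15). At 500 UMIs it had 2 and 4 UMIs, too few to read.

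Nr4a2 in myelinating Schwann-like cells had a ratio of 1.15, at 60.0 CPM in the Penk fl/fl and 52.0 CPM in the Penk fl/WT library, where 1 of 6 classes with enough UMIs, the proprioceptor-like neurons, was lower (0.592). This difference was not tested either, and the ratio does not pass the step. Thinned to 500 UMIs it was 1.13, with an interval of 0.881 to 1.45.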

How the results depend on the processing

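No paired analysis was possible because each group is 1 library. In neurons, 3 or 4 genes were lower under each of the 16 alternatives, while the share of all genes lower ran from 0.548% at a 1.5-fold step to 12.9% with cells thinned to 500 UMIs (6.75% with neurons at 3000 UMIs). The ratio of Egr1 ran over 0.360 to 0.673, that of Egr3 over 0.456 to 0.734 and that of Nr4a1 over 0.541 to 0.693. The number higher was 1 instead of 0 with cells thinned to 500 UMIs (Nr4a2, 1.52; 12.5% of all genes) and 1 with neurons thinned to 3000 UMIs (Egr2, 1.29; 5.11%). The median log2 ratio of the other rapid genes ran from -0.12 to -0.08. Counts over pairs moved more, and so did the shares over all genes, given in parentheses. Of the lower pairs with a value at 500 UMIs per cell, 21 of 31 stayed lower. Some of the rest passed the step for higher. They were Egr3 (4.02) and Zfp36 (1.36) in endothelial-like cells, Ier2 in proprioceptor-like (2.86), Dusp1 in A-delta LTMR-like (1.52) and Egr3 in peptidergic A nociceptor-like neurons (1.29). In that setting 27.7% of all neuron subtype pairs and 18.5% of all non-neuronal pairs were lower. Without the floor on UMIs, 46 of 85 neuron subtype pairs were lower (14.3%) and 3 higher (9.8%), and 30 of 63 non-neuronal pairs were lower (16%) and 5 higher (18.3%). At a 1.5-fold step the counts were 10 lower (0.850%) and 0 higher (0.264%) of 41, and 4 lower (0.505%) of 33. The 1 higher subtype pair became 10 of 38 with cells thinned to 500 UMIs (26.2%), beside 19 lower (27.7%), 5 of 41 with neurons at 3000 UMIs (14.2%), beside 19 lower (16.4%), and 3 with cells weighted equally (9.77%), so the higher counts lay near those shares. It became 2 each with unshared droplets (3.38%), without the highest Scrublet scores (2.99%), in neurons low in markers of other cells (4.8%), and without the Apoe-led clusters (2.32%) or the clusters of unequal share (1.95%). The last 2 were chosen after seeing the data. For non-neuronal pairs the 0 higher became 4 of 33 with cells thinned to 500 UMIs (17.6%), 2 with cells weighted equally (9.24%), and 1 each without the highest Scrublet scores (5.72%) and without the cell with the most UMIs (4.07%). The causes of these moves were not tested. Depth limits Npas4, Egr2 and Egr3 in single neuron subtypes, where most pairs fell under 200 UMIs, and no alternative stands in for the missing replicate libraries.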

Other observations

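Cells that could not be named also held these transcripts. A cluster of 256 Penk fl/fl and 303 Penk fl/WT cells, led by C4b, Lgi4 and Cdh19, had Nr4a1 at 440 and 412 CPM (1.07, 0.841 to 1.36) on 145 and 142 UMIs, a level above that of the satellite glia-like cells in both libraries. Egr1 in this cluster had 10 and 27 UMIs. A cluster led by globin genes, of 735 and 1020 cells, had 38 and 79 Nr4a1 UMIs (51.1 and 81.2 CPM) and 19 and 34 Egr1 UMIs. Neurons without a subtype name, 773 and 899 cells, had Egr1 at 8.06 and 11.6 CPM (0.696, 0.569 to 0.847), Nr4a1 at 8.62 and 12.0 CPM (0.719, 0.591 to 0.870) and Dusp1 at 23.1 and 31.4 CPM (0.734, 0.652 to 0.825), all lower in the Penk fl/fl library. Nr4a2 in them was at 4.78 and 4.26 CPM (1.12, 0.843 to 1.49).

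In satellite glia-like cells an Nr4a1 UMI was found in a larger share of the cells with an Egr1 UMI than of the others. At 500 UMIs per cell, Nr4a1 was found in 24.5% of 49 Penk fl/fl cells with an Egr1 UMI and 13.6% of the rest, and in 22.1% of 140 such Penk fl/WT cells and 13.5% of the rest. At least 3 of the 10 genes were found in 5 of 1383 Penk fl/fl and 14 of 1875 Penk fl/WT cells.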
